A study of Bos taurus with 40 samples.

Results

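The 5 endoplasmic reticulum (ER) chaperone genes described here were *HSPA5* (ENSBTAG00000007662), *HYOU1* (ENSBTAG00000010322), *DNAJB11* (ENSBTAG00000003151), *MANF* (ENSBTAG00000031797) and *CRELD2* (ENSBTAG00000047801), out of 8531 genes listed in any of the deposited files. They were taken by identifier from the genes that the study had named for a difference between RFI groups in bull liver, and each was followed wherever a file listed it. Residual feed intake (RFI) is actual intake minus the intake predicted from growth, body weight and change in back fat, and a low RFI marks an efficient animal. RNA was sequenced from liver and from *M. longissimus* skeletal muscle biopsies of purebred Simmental bulls and heifers, taken at the end of the feed intake test, for which all animals were housed at about 15 months of age and given concentrate freely with some grass silage. The 8 groups (bull or heifer, liver or muscle, high or low RFI) held 5 labelled samples each. RFI groups were formed on the animals' own intake, and their parents had also been chosen for high or low RFI, but the labels give no parentage and its part in the differences was not tested.

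The ER is where proteins that are secreted or sent to membranes are folded, and the liver, which makes most plasma proteins, depends heavily on it. *HSPA5* encodes BiP, the main Hsp70 chaperone of the ER lumen, which binds unfolded chains and also restrains the sensors of the unfolded protein response. *HYOU1* encodes a large Hsp70 relative that exchanges nucleotide on BiP, and *DNAJB11* a J-domain co-chaperone that brings clients to BiP. *MANF* encodes a small protein of the ER lumen that binds BiP and can be secreted, and *CRELD2* encodes an ER protein with EGF-like domains that is induced by ER stress. All are known targets of the unfolded protein response.

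All 5 genes were listed for bull liver and for heifer liver. Bull muscle files listed 3 of them (*HSPA5*, *HYOU1* and *MANF*) and heifer muscle files listed 2 (*HSPA5* and *MANF*). The files hold 7363 genes for bull liver, 7231 for heifer liver, 6004 for bull muscle and 5547 for heifer muscle. Over all labelled samples of a set, the lowest mean of any listed gene was 8.81, 7.50, 7.23 and 7.37 CPM (reads of a gene scaled to library depth) respectively. Values for *DNAJB11* and *CRELD2* in muscle and for *HYOU1* in heifer muscle were therefore not analysed here. Why these genes are not listed, and their levels there, are not known. *HYOU1* averaged 34.2 CPM over the 10 labelled bull muscle samples, and 8.05 CPM over the 6 that were kept, as described below.

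Library depth ran from 2368340 to 60929308 reads on genes, with a median of 19749118. In 7 samples the profile was that of the other tissue, wholly or in part, and these were set apart, namely bull muscle M12, M6, 2712 and M74 and heifer liver 2728, L58 and L16. Genes that differed more than 32-fold between the tissues put the other tissue's share at 42.9 to 115% in these 7 samples and at no more than 2.03% in the other 33. The 33 kept samples comprised 10 bull liver, 7 heifer liver (4 high and 3 low RFI), 6 bull muscle (4 high and 2 low RFI) and 10 heifer muscle samples. Counting error was small for most values. In kept samples *HSPA5* rested on 570 to 24019 reads, whereas the shallowest library, the liver of low RFI bull 2713, held 35 reads of *CRELD2*, a counting error of 16.9%.

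In liver, *HSPA5*, the chaperone at the centre of the group, had 363 ± 246 CPM (mean ± SD, n = 17; lowest 145, median 277, highest 1031), against 52.6 ± 13.6 CPM in muscle (n = 16; lowest 36.0, median 48.9, highest 87.6). *MANF* had 47.5 ± 27.0 CPM in liver (lowest 19.0, median 35.6, highest 104) and 9.80 ± 2.63 CPM in muscle (lowest 3.76, median 9.95, highest 12.8). For both genes every liver sample lay above every muscle sample, and the share of all genes so separated was not counted. The ratio of mean CPM, liver over muscle, was 6.90 for *HSPA5* and 4.85 for *MANF*.

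Both genes were higher in liver than in muscle by the test across all genes (limma on log2(CPM + 1), Benjamini-Hochberg adjusted p below 0.1). The log2 difference was 2.38 (SE 0.13, adjusted p = 7.55e-17) for *HSPA5* and 1.84 (SE 0.15, adjusted p = 1.93e-12) for *MANF*. This was a contrast in which most genes moved, as 82.1% of the 4416 genes listed in all 4 sets passed the same test, 1877 of them higher in liver. The *HSPA5* difference was larger than that of 94.9% of the genes tested and the *MANF* difference larger than that of 91.7%, where the median over all genes was 0.043. With the deposited CPM and no further scaling that median rose to 0.15, and the differences of *HSPA5* and *MANF* became 2.498 and 1.94. In biopsies a lower level of an mRNA in fewer cells and a lower level in every cell cannot be told apart.

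*HYOU1* could be compared between the tissues in bulls. Its 10 liver samples had 75.5 ± 43.5 CPM (lowest 37.2, median 56.6, highest 164). The 6 kept bull muscle samples had 8.05 ± 2.26 CPM (lowest 4.83, median 8.29, highest 11.7). The samples did not overlap, and the share of all genes so separated was not counted. The log2 difference of 2.71 (SE 0.26, limma adjusted p = 3.1e-08) was close in size to that of *HSPA5* in the same bulls, 2.80 (SE 0.22, adjusted p = 1.86e-09). *MANF* differed by 2.11 in bulls (SE 0.21, adjusted p = 7.08e-08). Of 5035 genes tested in bulls, 81.5% passed. Without further scaling the all-gene median in bulls moved from 0.0097 to 0.30, the calls changed from 2033 higher and 2069 lower in liver to 2537 higher and 1502 lower, and the 3 chaperone genes differed by 3.098 (*HSPA5*), 2.99 (*HYOU1*) and 2.39 (*MANF*).

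In heifers the tissue difference was smaller in size, with log2 differences of 1.79 (SE 0.12, limma adjusted p = 7.46e-10) for *HSPA5* and 1.40 (SE 0.19, adjusted p = 5.69e-06) for *MANF*, where 71.1% of 4579 genes passed. The bull differences include the low RFI bull livers in which the study chose the genes, so setting bulls against heifers is not independent of that choice. Among high RFI livers *HSPA5* averaged 265 CPM in 5 bulls and 264 CPM in 4 heifers. The 7 heifer livers held 145 to 326 CPM of *HSPA5* and the 10 heifer muscles 40.7 to 87.6 CPM. For *MANF* the ranges were 19.0 to 47.0 and 3.76 to 12.8 CPM.

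The interaction of tissue and sex, which tests this difference between bulls and heifers, was 1.17 for *HSPA5* on the log2 scale (SE 0.26, limma adjusted p = 0.0468), 1 of 9 genes (0.204% of 4416) that passed. For *MANF* the interaction was 0.86 (SE 0.30, adjusted p = 0.629) and did not pass. The *HSPA5* call did not hold without bull 2723's muscle sample (adjusted p = 0.225), without heifer 2705's liver sample (0.112) or without heifer 2660's liver sample (0.109), and with all 40 labelled samples the estimate was 0.20 (adjusted p = 0.972). It includes the low RFI bull livers in which the study had selected these genes, so its adjusted p is not independent of that choice.

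**Figure D1:**
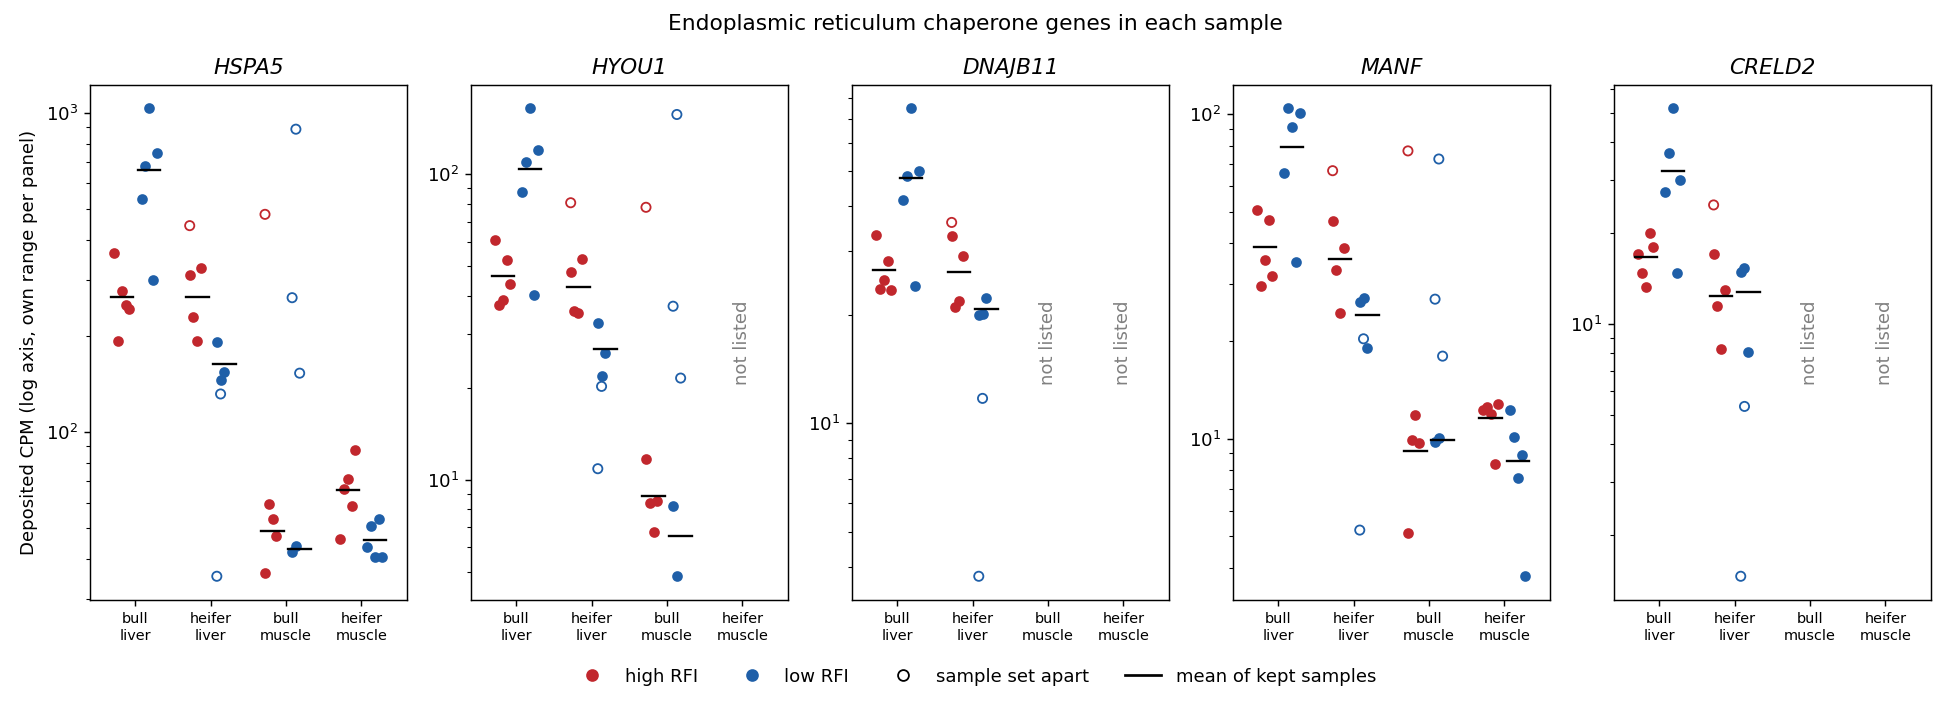
Deposited CPM of each of the 5 genes in every sample (log axis, range set per gene), by sex and tissue, with high RFI in red, low RFI in blue, open circles for the 7 samples set apart and a bar at the mean of the kept samples. All kept liver samples lie above all kept muscle samples for *HSPA5*, *HYOU1* and *MANF*, and 4 of the 5 low RFI bull livers lie above every other kept liver.

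The same animal could be followed in both tissues for 5 tags, 1 of which (bull 2712) has its muscle sample among those set apart. The study describes choosing 5 animals per sex and RFI group, so more animals may be shared between the tissues than the tags show. The main fit of the 33 samples treated them as independent. *HSPA5* was at 277 CPM in the liver and 36.0 CPM in the muscle of high RFI bull 2641, and at 749 and 41.9 CPM in low RFI bull 2723. High RFI heifer 2704 had 229 CPM in liver and 71.4 CPM in muscle, and low RFI heifer 2632 had 145 and 43.6 CPM. The higher liver value of bull 2723 over bull 2641 thus had no counterpart of like size in their muscle. In the fit of only these 4 animals, each compared with itself, the liver minus muscle difference was 2.43 for *HSPA5* (adjusted p = 0.000416) and 1.91 for *MANF* (adjusted p = 0.000834). The labelled muscle sample of bull 2712 held 887 CPM of *HSPA5* and 157 CPM of *HYOU1*, next to 1031 and 164 CPM in the liver sample.

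Bulls were compared with heifers within each tissue. In liver, *HSPA5* was at 462 ± 278 CPM in bulls (n = 10; lowest 192, median 331, highest 1031) and 221 ± 71.9 CPM in heifers (n = 7; lowest 145, median 192, highest 326). *HYOU1* was at 75.5 ± 43.5 CPM in bulls and 35.9 ± 11.01 CPM in heifers (lowest 21.8, median 35.1, highest 52.6). The groups overlapped for every gene, since 5 of the 10 bulls lay above all heifers for *HSPA5*, *HYOU1* and *DNAJB11*, and 6 of the 10 for *MANF* and *CRELD2*.

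Of the 5 genes, 4 were higher in bull liver than in heifer liver by limma, where 4.49% of the 7045 genes tested passed (164 higher and 152 lower in bulls). The study chose the genes for a low RFI excess in these bull livers, so the adjusted p values give no independent support. The log2 difference was 0.92 for *HSPA5* (SE 0.21, adjusted p = 0.0237) and 0.93 for *HYOU1* (SE 0.21, adjusted p = 0.0274). The BiP-binding protein gene *MANF* differed by 0.83 (SE 0.21, adjusted p = 0.0423) and *CRELD2* by 0.79 (SE 0.21, adjusted p = 0.0525). *DNAJB11*, the J-domain co-chaperone, had a difference of 0.52 (SE 0.17) and did not pass (adjusted p = 0.122). The median over the 5 genes was 0.83 and that over all genes 0.0059. Without further scaling all 5 genes passed, and the calls over all genes split into 207 higher and 122 lower in bulls.

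These bull livers are the ones in which the study selected the 5 genes for a low RFI excess, so the comparison between the sexes is not independent of that choice. *DNAJB11* passed without the shallow library of bull 2713 (adjusted p = 0.0116), and *CRELD2* did not pass without heifer 2705 (0.103) or heifer 2660 (0.111). With the 3 heifer livers of mixed profile put back, none of the 5 passed by limma (adjusted p from 0.18 to 0.281). The animals carried 4-digit tags or short codes, for a reason the labels do not give. Among 4-digit tags (8 bulls and 5 heifers) the 5 differences ran from 0.62 to 1.14. Among short codes (2 bulls, both high RFI, and 2 heifers) they ran from -0.073 for *HSPA5* to 0.38 for *CRELD2*, so the difference between the sexes was not seen in this small set.

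The same liver values were also set side by side within each RFI group. Among high RFI animals *HSPA5* averaged 265 ± 63.0 CPM in 5 bulls and 264 ± 64.3 CPM in 4 heifers, a log2 difference of -0.015 (SE 0.20). The other 4 genes differed by 0.10 (*HYOU1*, SE 0.16), 0.014 (*DNAJB11*, SE 0.16), 0.10 (*MANF*, SE 0.21) and 0.40 (*CRELD2*, SE 0.18) in the same animals. Among low RFI animals *HSPA5* averaged 659 ± 270.3 CPM in 5 bulls and 164 ± 24.4 CPM in 3 heifers, a log2 difference of 1.85 (SE 0.32). The other differences were 1.75 (*HYOU1*, SE 0.36), 1.03 (*DNAJB11*, SE 0.28), 1.55 (*MANF*, SE 0.33) and 1.17 (*CRELD2*, SE 0.34). All 5 low RFI bulls exceeded all 3 low RFI heifers for *HSPA5*, *HYOU1*, *DNAJB11* and *MANF*, and 4 of the 5 did so for *CRELD2*. These values are given without a test, because low RFI bull livers defined the genes. The share of all genes separated in this way was not counted.

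In muscle the sexes were closer. *HSPA5* was at 47.0 ± 8.42 CPM in 6 bulls (lowest 36.0, median 45.6, highest 59.6) and 55.9 ± 15.3 CPM in 10 heifers (lowest 40.7, median 52.0, highest 87.6), a log2 difference of -0.27 (SE 0.13, limma adjusted p = 0.889). *MANF* was at 9.40 ± 2.24 and 10.0 ± 2.92 CPM, a difference of -0.052 (SE 0.21, adjusted p = 0.948). The groups overlapped for both genes. None of the 2 genes passed by limma or edgeR, and neither had an unadjusted limma p under 0.05 (0.0528 for *HSPA5*), where 0.0933% of 5358 genes passed. With the 4 liver-like bull samples put back both estimates changed sign, to 0.98 for *HSPA5* and 0.78 for *MANF*, without passing.

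**Figure D2:**
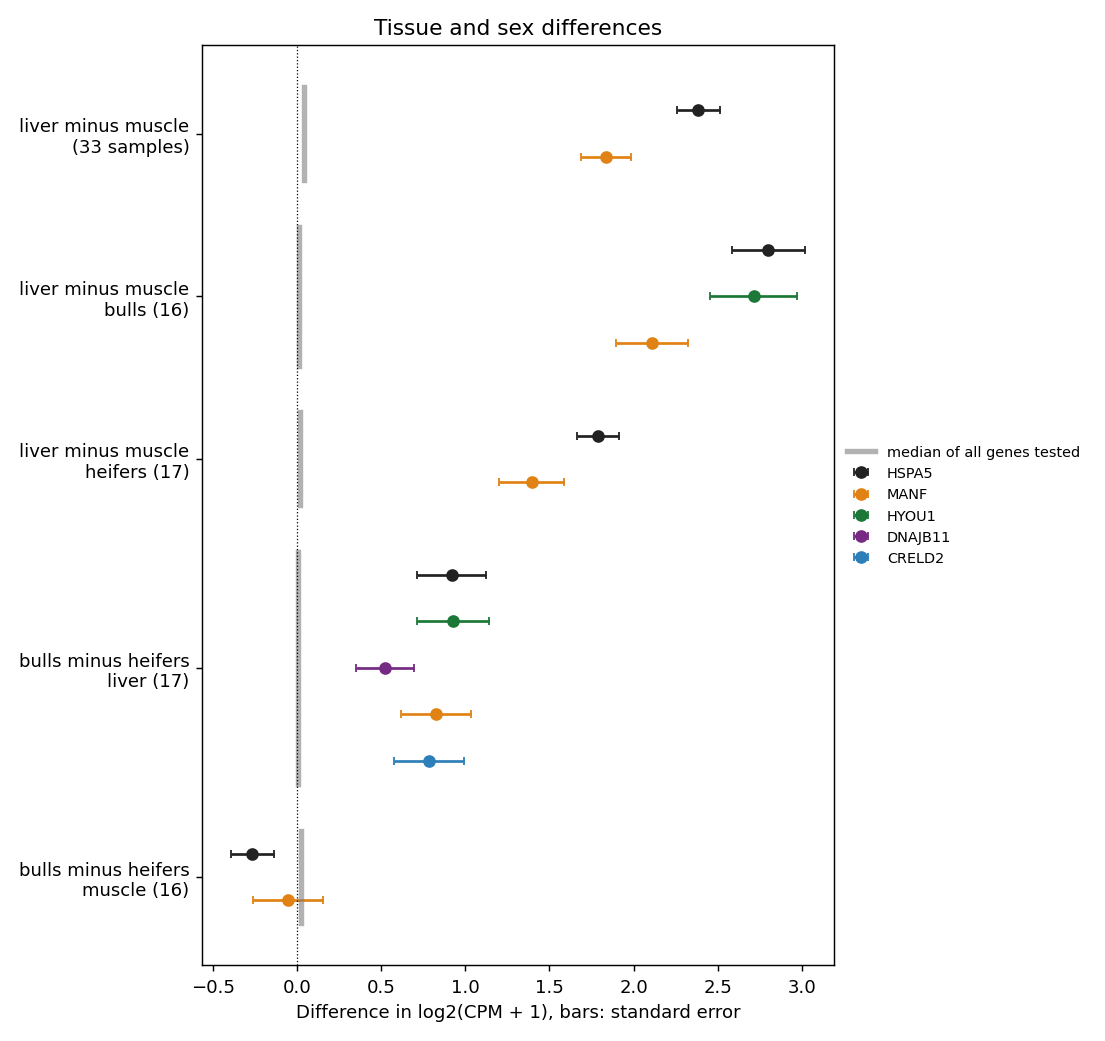
Log2 differences of the listed genes (points, with standard errors as bars) for liver minus muscle and for bulls minus heifers, with the number of samples in each fit and a grey bar at the median of all genes tested. The tissue differences lie between 1.40 and 2.80, the liver sex differences between 0.52 and 0.93, and the muscle sex differences at -0.27 and -0.052.

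Low and high RFI animals were compared in the 3 sets of samples that the study's selection had not used. In heifer liver, *HSPA5* was at 311, 229, 192 and 326 CPM in the 4 high RFI heifers (2670, 2704, 2705 and L60) and at 191, 145 and 154 CPM in the 3 low RFI heifers (L59, 2632 and 2660). On the deposited CPM all 3 low RFI values lay below all 4 high RFI values. The closest pair was 191 CPM (L59) and 192 CPM (2705), with counting errors of 2.07% and 1.63%. *HYOU1* was at 47.7, 35.6, 35.1 and 52.6 CPM in high RFI and at 32.5, 21.8 and 26.1 CPM in low RFI heifers, again without overlap. Low RFI values were thus the lower ones for these 2 genes, the opposite order to bull liver. Without further scaling the median low minus high RFI difference of all genes was -0.087, and 31.4% of genes were higher in low RFI heifers. How many of the 7231 genes separated these heifers in the same way was not counted.

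None of the 5 genes passed in heifer liver by limma or edgeR, where 0% of 7231 genes passed by either tool and 181 had an unadjusted limma p under 0.05. The low minus high RFI difference was -0.59 for *HSPA5* (SE 0.20, unadjusted p = 0.0156, limma adjusted p = 0.9996) and -0.58 for *HYOU1* (SE 0.18, unadjusted p = 0.0101, the same adjusted p). Exact permutation tests over the 35 assignments of the heifers gave p = 0.0286 for *HYOU1*, the smallest value that this design allows, and p = 0.0571 for *HSPA5* (two-sided, n = 3 and 4). *MANF* had a difference of -0.45 (SE 0.23) and *DNAJB11* one of -0.23 (SE 0.18). *CRELD2*, at 12.7 ± 4.04 CPM in low and 12.4 ± 3.66 CPM in high RFI heifers, differed by 0.096 (SE 0.28). The median over the 5 genes was -0.45 and over all genes -0.012.

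Within 4-digit tags alone (2 low and 3 high RFI heifers) *HSPA5* differed by -0.59 and *HYOU1* by -0.61, and between the pair with short codes by -0.67 and -0.58. With heifers 2728, L58 and L16 included, the 5 differences were larger in size, up to -1.03 for *HSPA5*, and *CRELD2* turned to -0.64, with no gene passing. Of those samples the low RFI heifers L58 and L16 had 115% and 76.6% of the muscle profile and 35.3 and 131 CPM of *HSPA5*, and the high RFI heifer 2728 had 42.9% and 443 CPM. The part of the mixed profiles in the larger differences was not tested.

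In heifer muscle, *HSPA5* was at 46.0, 66.1, 71.4, 58.7 and 87.6 CPM in the 5 high RFI heifers and at 43.6, 50.7, 40.7, 53.2 and 40.7 CPM in the 5 low RFI heifers. Of the low RFI heifers 3 lay below every high RFI heifer, and the other two overlapped with them. The means were 66.0 ± 15.4 and 45.8 ± 5.84 CPM. After scaling the log2 difference was -0.24 (SE 0.17, limma adjusted p = 0.999) and the exact permutation test over 252 assignments gave p = 0.0794 (two-sided, n = 5 per group). *MANF* was at 11.6 ± 1.84 CPM in high and 8.52 ± 3.17 CPM in low RFI heifers, a difference of -0.23 (SE 0.28, adjusted p = 0.999). None of these genes passed, nor did any other (0% of 5547 genes by limma or edgeR, 91 with an unadjusted limma p under 0.05). Without further scaling the differences read -0.50 and -0.46, but the median of all genes was then -0.24.

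In bull muscle, *HSPA5* was at 36.0, 59.6, 53.5 and 47.2 CPM in the 4 kept high RFI bulls and at 41.9 and 44.0 CPM in the 2 kept low RFI bulls, inside the high RFI range. *HYOU1* was at 11.7, 8.37, 6.73 and 8.49 CPM in high RFI and at 8.20 and 4.83 CPM in low RFI bulls. *MANF* was at 5.13, 9.90, 11.9 and 9.71 CPM in high RFI and at 9.79 and 10.0 CPM in low RFI bulls. The log2 differences were -0.12 (*HSPA5*, SE 0.21), -0.37 (*HYOU1*, SE 0.40) and 0.20 (*MANF*, SE 0.29). None passed by limma or edgeR (0% of 6003 genes by either tool, 123 with an unadjusted limma p under 0.05). The smallest p that an exact permutation test can give with 2 and 4 bulls is 0.0667, and the values obtained were 0.4, 0.533 and 0.333.

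The RFI difference in muscle was not shown to differ between the sexes. The interaction was 0.090 for *HSPA5* (SE 0.25) and 0.41 for *MANF* (SE 0.42), and 0% of 5358 genes passed by limma (44 with an unadjusted p under 0.05) and 0 by edgeR. Without further scaling the all-gene median of this interaction was 0.21.

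In bull liver, where the genes were chosen, the low minus high RFI differences are given as a description. They were 1.28 for *HSPA5* (SE 0.29), 1.08 for *HYOU1* (SE 0.31), 0.99 for *MANF* (SE 0.28), 0.87 for *CRELD2* (SE 0.25) and 0.79 for *DNAJB11* (SE 0.24). For every gene 4 of the 5 low RFI bulls lay above all high RFI bulls, and bull 2713, with 2368340 reads the shallowest library, lay within the high RFI range. That bull held 298 CPM of *HSPA5*, against 537 to 1031 CPM in the other 4 low RFI bulls and 192 to 363 CPM in high RFI bulls. The bull minus heifer difference of these RFI differences was 1.87 for *HSPA5* (SE 0.41), 1.66 for *HYOU1* (SE 0.43), 1.44 for *MANF* (SE 0.42), 1.02 for *DNAJB11* (SE 0.34) and 0.77 for *CRELD2* (SE 0.41), also without a test.

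**Figure D3:**
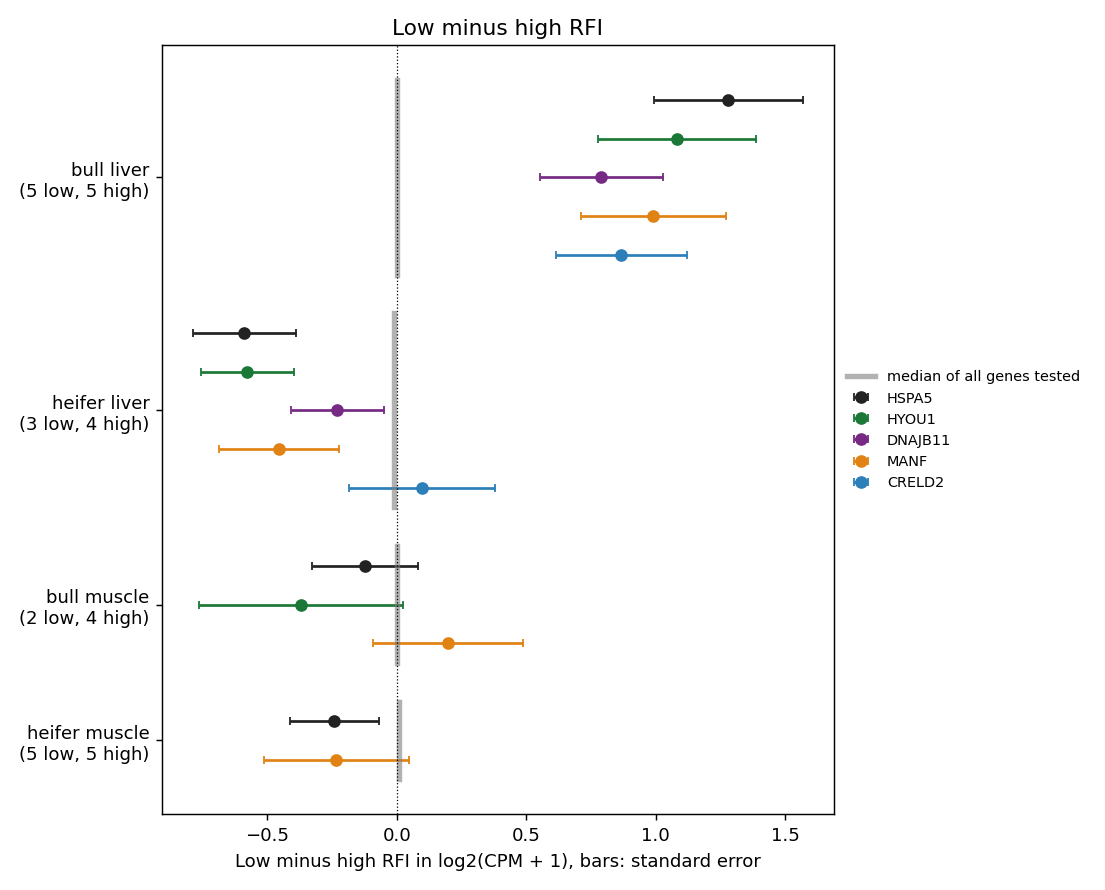
Low minus high RFI differences on the log2 scale (points, with standard errors as bars) for the genes listed in each sex and tissue, with a grey bar at the median of all genes tested. Differences in bull liver, where the study chose the genes, lie between 0.79 and 1.28, those in heifer liver between -0.59 and 0.096, and those in muscle between -0.37 and 0.20.

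The spread of the genes between animals of a group was read from the residual SD of each fit. In the bull liver fit *HSPA5* had a residual SD of 0.55 on the log2 scale, above that of 96.8% of genes, and the other 4 genes had 0.45 to 0.59. That fit includes the shallow library of low RFI bull 2713, at 298 CPM of *HSPA5* against 537 to 1031 CPM in the other low RFI bulls. The part of this library in the spread was not tested. In heifer liver the residual SD of *HSPA5* was 0.28, above 60.6% of genes. In muscle of both sexes it was 0.17, with 1.81% of 5358 genes lower, which puts *HSPA5* among the least variable genes listed for muscle. *MANF* in the same muscle fit had a residual SD of 0.36, with 39.1% of genes lower.

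The proportions between the genes were compared within each library. The log2 ratio of *HYOU1* to *HSPA5*, and so free of scaling between libraries, was -2.59 ± 0.19 (SD, n = 10) in bull liver and -2.62 ± 0.10 (n = 7) in heifer liver. In bull muscle its mean was similar, at -2.58, but the spread was wider (SD 0.56, n = 6). The ratio of *MANF* to *HSPA5* was -2.91 ± 0.29 in bull liver, -2.84 ± 0.22 in heifer liver, -2.35 ± 0.29 in bull muscle and -2.51 ± 0.46 in heifer muscle. The ratio of *DNAJB11* was -3.53 ± 0.29 in bull and -3.17 ± 0.27 in heifer liver, and that of *CRELD2* -4.17 ± 0.35 and -4.13 ± 0.50. These means pool RFI groups that were unlike. For *DNAJB11* bulls and heifers had -3.29 and -3.32 in high RFI, and -3.76 and -2.97 in low RFI. For *CRELD2* they had -3.98 and -4.43 in high RFI, and -4.36 and -3.73 in low RFI. These shifts were not tested. These ratios depend on gene length and serve only to compare samples.

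Correlations among the genes were computed within each sex and tissue on the scaled log2 values, 14 pairs in all outside bull liver. In heifer liver the 10 pairs had Pearson r from 0.15 to 0.97. *HSPA5* and *HYOU1* had r = 0.97 (exact permutation p = 0.00139, adjusted p = 0.0194 over the 14 pairs, n = 7) and Spearman's rho = 0.93 (exact p = 0.00675, adjusted p = 0.0944), and r was 0.90 without the 2 heifers farthest from the median. *HSPA5* and *MANF* had r = 0.86 (exact permutation p = 0.0125, adjusted p = 0.0583, n = 7) and rho = 0.86 (exact p = 0.0238, adjusted p = 0.167), with r = 0.62 without the 2 farthest. The other 8 pairs did not pass, and the pairs of *DNAJB11* with *HSPA5* and with *MANF* went from 0.77 and 0.74 to -0.58 and -0.38 without the 2 farthest heifers, so they rested on those samples. With the RFI group means removed, the 10 values lay between 0.43 and 0.97.

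In bull liver, for description, the 10 pairs had r from 0.91 to 0.99 and from 0.81 to 0.98 with the RFI group means removed. The pairs thus still moved together after the group means were removed, over 10 libraries in which the depth of bull 2713 was the lowest. These r pool both RFI groups, and none was computed within a single group.

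On the scaled values, muscle gave lower correlations for *HSPA5* with *MANF*. *HSPA5* and *MANF* had r = 0.23 in heifer muscle (permutation p = 0.519, rho = 0.16 with permutation p = 0.656, n = 10), r = 0.085 without the 2 farthest and 0.55 on the deposited CPM. In bull muscle they had r = 0.14 (exact permutation p = 0.788, rho = 0.26 with exact p = 0.658, n = 6). Here r was 0.48 without the 2 farthest and 0.74 on the deposited CPM, so it depended on the scaling. *HYOU1* and *MANF* had r = -0.98 in bull muscle (exact permutation p = 0.00694, adjusted p = 0.0486, n = 6), rho = -0.83 (exact p = 0.0583, adjusted p = 0.272), and r = -0.95 without the 2 farthest bulls. On the deposited CPM this r was -0.72. Bull 2641 had the highest *HYOU1* and the lowest *MANF* there. These values rested on 119 to 230 reads of *HYOU1* and at least 101 reads of *MANF* per library.

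**Figure D4:**
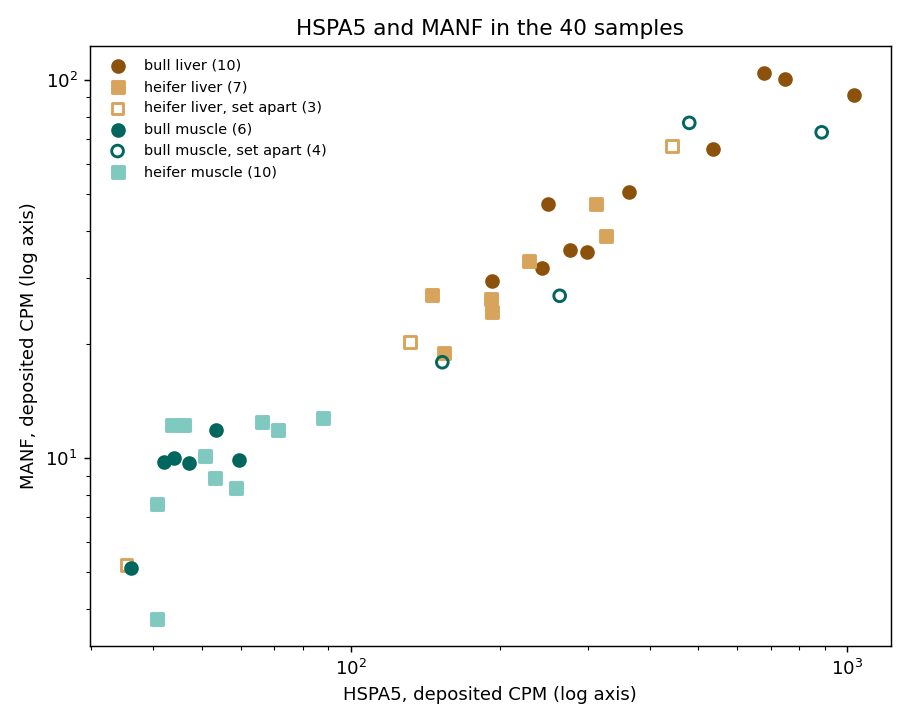
*MANF* against *HSPA5* in deposited CPM (log axes) for the 40 samples, by sex and tissue, with open symbols for the samples set apart. The kept muscle samples reach at most 87.6 CPM of *HSPA5* and 12.8 CPM of *MANF*, the kept liver samples start at 145 and 19.0 CPM, and the open bull muscle symbols lie among the liver samples.

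Genes with a pattern like that of the chaperone genes were sought after removing group means. Over the 17 liver samples, 18 of 7040 other genes (0.256%) had r above 0.8 with the mean of the 5 genes, the highest being ENSBTAG00000005371 at 0.91. Among the 11 other genes that carry a name here, *COX1*, which encodes a mitochondrial subunit of cytochrome c oxidase, had r = 0.60 and *GMPPB*, an enzyme of GDP-mannose synthesis, also 0.60, at ranks 248 and 266 of 7040. The mitochondrial genes *COX3* and *cytb* had 0.56 and 0.51, *GNPNAT1*, an enzyme of UDP-GlcNAc synthesis, 0.51, and the circadian transcription factor *DBP* -0.30. Several of these values were unlike in bulls and heifers, a difference that was not tested. In the 10 bull livers r was 0.69 for *COX1*, 0.68 for *GNPNAT1* and -0.50 for *DBP*, and in the 7 heifer livers it was 0.22, 0.066 and 0.31. *GMPPB* (0.64 and 0.54) and *COX3* (0.57 and 0.58) had similar values in both. Over the 16 muscle samples, against the mean of *HSPA5* and *MANF*, the 5 mitochondrial genes had negative r (*ND5* -0.61, *ND6* -0.52, *COX1* -0.46, *cytb* -0.42 and *COX3* -0.40). Over the 17 livers, against the mean of all 5 chaperone genes and so by another measure, they were positive. In the 7 heifer livers alone *ND5* (-0.26) and *ND6* (-0.088) were negative, and *COX1*, *cytb* and *COX3* positive. Over the 33 samples of both tissues none of 4414 genes had r above 0.8 with the mean of *HSPA5* and *MANF*, and the 7 named genes listed in all sets lay between -0.16 and 0.046. These r share the libraries and their depth with the chaperone genes and are given as descriptions.

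The 7 samples set apart lay mostly outside the kept samples of their label. *HSPA5* was at 480, 263, 887 and 153 CPM in bull muscle M12, M6, 2712 and M74, all above the highest kept bull muscle sample (59.6 CPM). *HYOU1* was at 77.9, 37.0, 157 and 21.5 CPM and *MANF* at 77.1, 26.9, 72.8 and 17.95 CPM in the same samples, again all above the kept ones. Sample M74, with 44.7% of the liver profile, had the lowest values of the 4. Of the heifer livers set apart, L58 held 35.3 CPM of *HSPA5*, below every kept muscle sample, L16 held 131 CPM, and 2728, with 42.9% of the muscle profile, held 443 CPM, above every kept heifer liver.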

How the data were processed

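Per the methods, the authors checked reads with FastQC 0.11.5, aligned them to UMD3.1 with STAR 2.5.1, counted them on protein-coding genes of Ensembl 88 with HTSeq 0.6.1p2 and tested the counts with edgeR 3.5 in R 3.4. The deposited values are CPM, and every value was a whole multiple of the worth of 1 read (largest gap 0.000275 read), so reads and depth were recovered. The deposited columns of bull muscle, whose signal sums to more than CPM can because their last 1359 rows hold values of the bull 2723 liver sample, were used without those rows. No column belonged to a sample outside the series. The 80 pairs of samples within groups differed by more than sampling noise (smallest chi-square per gene 18.3).

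CPM were rescaled by TMM (edgeR 4.0.16) on the genes of each fit, genes above 1 CPM in as many samples as the smallest group were kept, and log2(CPM + 1) was tested with limma 3.58.1 in R 4.3.3 (trended variance, adjusted p < 0.1). The test was run on the deposited unit, and edgeR's count test on the recovered reads was an alternative. The scale understates changes of low genes. Correlations used 100000 permutations, or all of them below 8 samples. Python 3.11.15, numpy 2.4.6, pandas 2.3.3, scipy 1.17.1 and matplotlib 3.10.9 were used. The fits were tested on simulated data.

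The alternatives were no rescaling, median-of-ratios scaling, pseudocounts of 0.1 and 5, an adjusted p < 0.05, no filter, a floor of 10 reads in all samples, edgeR on recovered reads, tag style as covariate, all labelled samples and each sample left out. The comparisons within a sex, within an RFI group of liver, of tissue by sex, and of sex by RFI in liver were added after seeing the data. Whether same-tag samples pair the tissues was taken from the tags, which name the same animal (5 animals, 4 of them kept, correlation of 0.28 between their samples).

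The genes to name were fixed as the 5 chaperone genes, up to 5 passing genes of each ER gene list in each comparison, and the 10 named genes most like them. The files give identifiers without symbols and no table at hand pairs them, so ER gene lists and cell type markers could not be matched, names come from the study, and the most alike genes are given by identifier. Tissue identity was judged by genes over 32-fold apart. The members and lists were chosen with earlier results of these data known. Gene coordinates and sequences were not used here.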

Additional observations from a re-analysis of the deposited data

Results flagged for a closer look

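*MANF* in the muscle of high RFI heifer M69 was at 8.33 CPM, far from the other 4 high RFI heifers, which lay between 11.9 and 12.8 CPM. It was 1 of 22 gene and group combinations examined for a sample at a distance, and chance gives about 1 in 20.

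The estimated tissue difference of *HSPA5* was larger in bulls than in heifers, with an interaction of 1.17 on the log2 scale that passed by limma. The adjusted p values, and the libraries without which it did not pass, stand with that comparison. The interaction includes the low RFI bull livers in which the study chose the gene, so its pass gives no independent support. The bull minus heifer liver difference of *HSPA5* was -0.015 in high RFI and 1.85 in low RFI animals. The part of the low RFI bull livers in the interaction was not tested.

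The 4 bull muscle samples set apart, which entered a comparison only where all labelled samples are named, held more of each listed gene than any kept bull muscle sample. Their lowest value was 153 CPM for *HSPA5* (kept samples at most 59.6 CPM), 21.5 CPM for *HYOU1* (at most 11.7 CPM) and 17.95 CPM for *MANF* (at most 11.9 CPM).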

How the results depend on the processing

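The tissue differences of *HSPA5*, *HYOU1* and *MANF* passed under every alternative run, the fit with the animal tag as replicate block (2.40 for *HSPA5*, 1.85 for *MANF*) and that of the 4 animals alone included. With all labelled samples, 0 of the 5 genes passed between bull and heifer liver and 0 genes in the tissue by sex interaction. Leaving out each sample, 3 to 5 genes passed between bull and heifer liver and 0 to 1 in the interaction, and the median bull liver RFI difference ran from 0.86 to 1.28. In the other tested comparisons the count of passing chaperone genes was the same under every alternative. Across all genes, the RFI comparisons within heifer liver, heifer muscle and bull muscle called none under any alternative but 1, heifer liver without heifer L59, where 2 genes passed, neither of them a chaperone gene. The RFI difference in bull liver, its interaction with sex and the sexes within low RFI liver carry no test. Without bull 2713 they were larger, at 1.56, 2.15 and 2.13 for *HSPA5*.

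With all labelled samples the sign turned for *HSPA5* (0.98) and *MANF* (0.78) between bull and heifer muscle, for *HSPA5* (0.98) and *HYOU1* (0.72) with RFI in bull muscle and for *CRELD2* (-0.64) with RFI in heifer liver. The median correlation became 0.97 in bull muscle and 0.94 in heifer liver, and without rescaling it was 0.55 in heifer muscle. Leaving out a sample, estimates near 0 turned for *MANF* between the sexes in muscle (-0.14 to 0.041), *CRELD2* with RFI in heifer liver (-0.083 to 0.39) and *HSPA5* in the muscle interaction (-0.010 to 0.19). All labelled samples include the 7 of mixed profile. The other causes were not tested. Depth limits most the liver of bull 2713 and muscle values near 100 reads. The groups of 2 to 5 leave differences of the size seen in heifer liver undecided.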
